A study of Homo sapiens with 6 samples.

Results

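Mitochondrial ribosomal proteins are encoded in the nucleus, made in the cytosol and imported into mitochondria. There they build the mitoribosome, the ribosome that translates the few mRNAs of the mitochondrial genome, all of which encode subunits of the respiratory chain and ATP synthase. Names with MRPS mark proteins first assigned to the small subunit, which reads the mRNA, and names with MRPL those of the large subunit, which joins the amino acids. SAM68 is an RNA-binding protein that regulates alternative splicing and binds A/U-rich motifs such as UAAA.

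To examine how the splicing and the transcript levels of these genes responded to SAM68, all events of genes named MRPL or MRPS followed by a number, with or without a letter from A to C, were taken from the series. The tables listed 372 such events in 61 genes, among 78336 events in all. A mean of at least 10 junction reads per library was reached by 336 events. One of these, an alternative 3′ splice site of MRPS18B, had counts that could be read in more than 1 way and was not tested. The other 335 events, in 60 genes, were tested together with all 66396 events that met the same minimum. They comprised 245 skipped exons (SE), 46 pairs of mutually exclusive exons (MXE), 18 alternative 3′ splice sites (A3SS), 17 alternative 5′ splice sites (A5SS) and 9 retained introns (RI). MRPL48 held 35 of them, 11 genes held a single event, and the median was 4 events per gene, so that events of a gene often shared exons and reads.

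NCI-H1975 is an established human lung adenocarcinoma (LUAD) cell line. The cells were transfected with PCDNA3.1-SAM68 or, as control, with the empty PCDNA3.1 plasmid, at 2 µg per well by lipofection, and their total RNA was sequenced after 48 h in 3 biological replicates per group. Both groups therefore received a plasmid and the same reagent, and the SAM68 cells also kept their own SAM68 gene. The tables give 3 values per group in a list without replicate numbers. The first list was taken to be that of the control, since the splicing plot of the study assigns its values to the control libraries. The libraries held 16951876 to 19737729 junction reads in the SE events, and 131239 to 152548 reads in the events studied here. Reads can count in several events and carry no molecular identifiers.

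SAM68 is encoded by KHDRBS1 (ENSG00000121774.17). The junction reads of KHDRBS1, taken from its event with the most reads and scaled to reads per 1000000 such reads over all genes (rpm), were 311.5, 328.8 and 316.3 rpm in the control libraries, against 1232, 1261 and 1277 rpm in the SAM68 libraries. This was a rise of 1.98 on the log2 scale (standard error 0.047, adjusted p = 1.15e-21, limma). Reads from the plasmid's SAM68 sequence count with those of the gene. Of 8 epithelial and lung adenocarcinoma markers, 3 were read. The simple epithelial keratins KRT8 (337 rpm in control and 238 rpm in SAM68 libraries) and KRT18 (483 and 525 rpm) were abundant, whereas NAPSA, an aspartic protease of lung epithelium, was near 0 (0.389 and 0.306 rpm). The other markers, and markers of other cell types that were also looked up, had no event among those read, so their levels are not known from these data.

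The percent spliced in (PSI) is the share of the inclusion form among the junction reads of an event, after each form is divided by its effective length. Changes in PSI are SAM68 minus control, in percentage points. Events counted as called where the adjusted p was under 0.05 and the change was at least 10 points, in a quasi-binomial model with the spread between libraries moderated by limma. No event of the mitochondrial ribosomal protein genes was called (0 of 335), against a background of 0.0271% of all events (18 of 66396). None reached an adjusted p under 0.05 without the limit on size, against 65 of all events. At an unadjusted p under 0.05 there were 23 events (6.87%), where the background was 8.44%. In 16 events (4.78%) the control libraries did not overlap with the SAM68 libraries, where the background was 6.1%. These shares did not exceed those of all events. Limma on the logit of PSI also called 0 of the 335 events, against 3 of all 66396 events. It had 15 of the 335 at an unadjusted p under 0.05, for which no count over all events is given here. A likelihood ratio test on pooled counts ignores the spread between libraries. It called 1 of the 335 events, an exon of MRPL10 described later, against 1354 of all 66396 events.

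The depth of these events limited how large an unseen change could be. Their median was 340 reads per library, against 111 reads for all events, and the median absolute change was 0.459 points, against 1.24 points. The 95% interval of the change lay within 10 points on either side of 0 for 288 of the 335 events (86%), and for 69% of all events. A change of 10 points or more was measured in 5 events (1.49%, against 7.17% of all events), and 4 of these had fewer than 50 reads per library. The intervals rest on reads that are not independent molecules, and the spread between libraries enters them through the dispersion of the test. They are centred on the change in the summed reads of each group, whereas the change given is that of the mean PSI of the libraries. A change therefore need not lie in the middle of its interval.

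**Figure D1:**
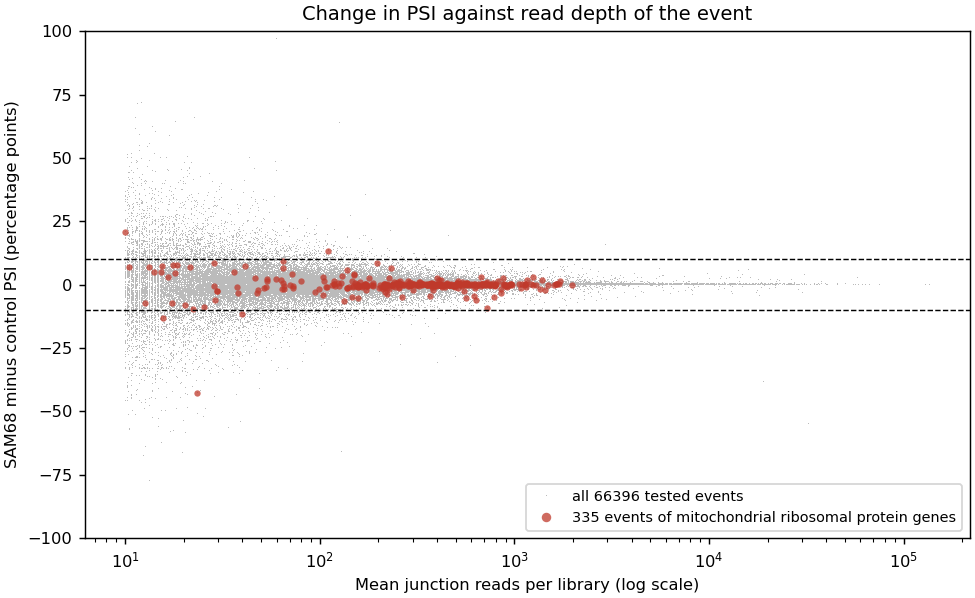
Change in PSI (SAM68 minus control, percentage points) against mean junction reads per library (log scale), for all 66396 tested events (grey) and the 335 events of mitochondrial ribosomal protein genes (red). The dashed lines mark 10 points in either direction, and 5 red points lie on or beyond them, 4 of them at fewer than 50 reads per library.

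Most exons of these genes were used in nearly all transcripts. Control PSI was above 90% in 203 events, under 10% in 73 and between these limits in 59. Among SE events the share above 90% was 74.3% (182 of 245), against 71.8% of all SE events. The 245 SE events described 171 distinct exons, of which 117 belonged to the canonical transcript of GENCODE. Of the SE events, 103 had a skipping junction in an annotated transcript, with a median control PSI of 88.9%, and 142 had none, with a median of 99.8%. Taking each exon by its event with the most reads, 11 of the 171 exons (6.43%) lay between 10% and 90%, against 13.7% of all 38792 exons. This comparison is a description, since the exons of a gene are not independent.

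Cassette exons of 4 genes, among the most deeply read of those in partial use, are shown with their sequence as examples of what was included or skipped. Capitals mark the exon, and lower case the 20 bases before it and the 6 bases after it, 5′ to 3′ on the transcript strand. Positions are those of the exon in hg38 (GRCh38), numbered by the canonical transcript of GENCODE 44. The MRPS18C exon is exon 3 of 6 (chr4:83458346-83458429, + strand), the MRPL33 exon is exon 3 of 4 (chr2:27774424-27774530, + strand), the MRPL9 exon is exon 5 of 7 (chr1:151761451-151761552, − strand) and the MRPL2 exon is exon 6 of 7 (chr6:43055545-43055618, − strand).
MRPS18C exon 3: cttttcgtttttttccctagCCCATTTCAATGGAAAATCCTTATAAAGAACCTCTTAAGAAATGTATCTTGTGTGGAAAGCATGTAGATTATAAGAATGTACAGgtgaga
MRPL33 exon 3: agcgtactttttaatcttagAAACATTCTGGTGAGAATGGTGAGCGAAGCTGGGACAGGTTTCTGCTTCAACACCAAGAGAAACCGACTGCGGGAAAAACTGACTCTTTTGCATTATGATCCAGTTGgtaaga
MRPL9 exon 5: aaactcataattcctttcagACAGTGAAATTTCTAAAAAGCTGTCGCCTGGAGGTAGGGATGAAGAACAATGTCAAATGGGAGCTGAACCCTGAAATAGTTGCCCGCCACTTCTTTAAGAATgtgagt
MRPL2 exon 6: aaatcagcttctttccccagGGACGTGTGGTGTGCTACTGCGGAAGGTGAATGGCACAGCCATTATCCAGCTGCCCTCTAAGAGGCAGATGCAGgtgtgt
Each exon is preceded by AG and followed by GT, and is wholly coding in an annotated protein-coding transcript. The MRPS18C exon (84 bases) and the MRPL9 exon (102 bases) are multiples of 3, so that skipping keeps the reading frame. The MRPL33 exon (107 bases) and the MRPL2 exon (74 bases) are not.

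MRPS18C, a homolog of bacterial protein S18 and one of 3 human paralogs, included its exon at 86.6%, 87.1% and 85.5% in the control libraries and at 84.5%, 83.7% and 87.3% in the SAM68 libraries. The groups overlapped, and the change was -1.21 points (95% interval -3.83 to 1.24, adjusted p = 0.566) at 1082 reads per library. It was -0.48 points without SAM68 library 2 and -2.26 points without SAM68 library 3. The same exon counted against a further downstream exon was at 99.8% in both groups, which shows that PSI depends on the neighbours rMATS pairs with an exon.

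MRPL33, a homolog of bacterial L33, included its exon at 79.4%, 80.1% and 72.7% in the control libraries and at 81.1%, 77.5% and 77.9% in the SAM68 libraries. The groups overlapped, and the change of 1.43 points (95% interval -2.12 to 5.57, adjusted p = 0.574) turned to -0.93 points without the third control library. This exon had the lowest control PSI of the SE events with more than 400 reads that lay between 10% and 90%.

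MRPL9, a homolog of bacterial L9, included its exon at 90.2%, 89.0% and 86.4% in the control libraries and at 92.3%, 88.6% and 94.1% in the SAM68 libraries. The change was 3.15 points (95% interval 0.18 to 6.39, unadjusted p = 0.0485, adjusted p = 0.566), with overlapping groups, and 1.92 points without SAM68 library 3. MRPL2, a homolog of bacterial L2 at the peptidyl transferase centre, showed 90.03%, 89.5% and 90.1% in the control libraries, against 90.8%, 91.4% and 88.2% in the SAM68 libraries, a change of 0.23 points (95% interval -2.47 to 3.08, adjusted p = 0.911).

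Other cassette exons in partial use likewise had overlapping groups. Exon 2 of MRPS28, a small subunit protein, was included at 89.0%, 88.7% and 88.9% in the control libraries and at 90.3%, 91.1% and 88.6% in the SAM68 libraries (1.12 points, adjusted p = 0.599). Control PSI and change were 87.3% and -2.68 points for a form of 136 bases of exon 3 of MRPL22, whose bacterial homolog lines the exit tunnel, 89.4% and -1.02 points for MRPS10, and 89.3% and 1.80 points for exon 5 of MRPS15. The canonical form of the MRPL22 exon, of 118 bases, was read at 850 reads per library and was at 92.1% in the control and 90.2% in the SAM68 libraries. Set against the 118-base form as an A3SS event, the 136-base form was at 0.202% in the control and 0.244% in the SAM68 libraries (303 reads per library). The PSI of 87.3% therefore does not measure use of the 136-base form. For the MRPS15 exon the event with the most reads, 894 per library, was at 98.7% in the control and 98.2% in the SAM68 libraries. In MRPL55, a large subunit protein without a bacterial counterpart, a noncoding exon (67 bases, exon 2) was included at 49.2%, 43.5% and 53.6% in the control libraries and at 38.1%, 47.3% and 41.5% in the SAM68 libraries. The groups overlapped, and the change was -6.46 points (95% interval -15.5 to 1.52, adjusted p = 0.566) at 134 reads per library, or -4.05 points without control library 3. The A5SS event of the same exon was at 12.5%, 10.1% and 8.84% in the control libraries and at 19.3%, 15.0% and 16.9% in the SAM68 libraries for the longer exon. Without overlap between the groups, the change was 6.56 points (95% interval -0.11 to 13.4, adjusted p = 0.656) at 64.7 reads per library.

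**Figure D2:**
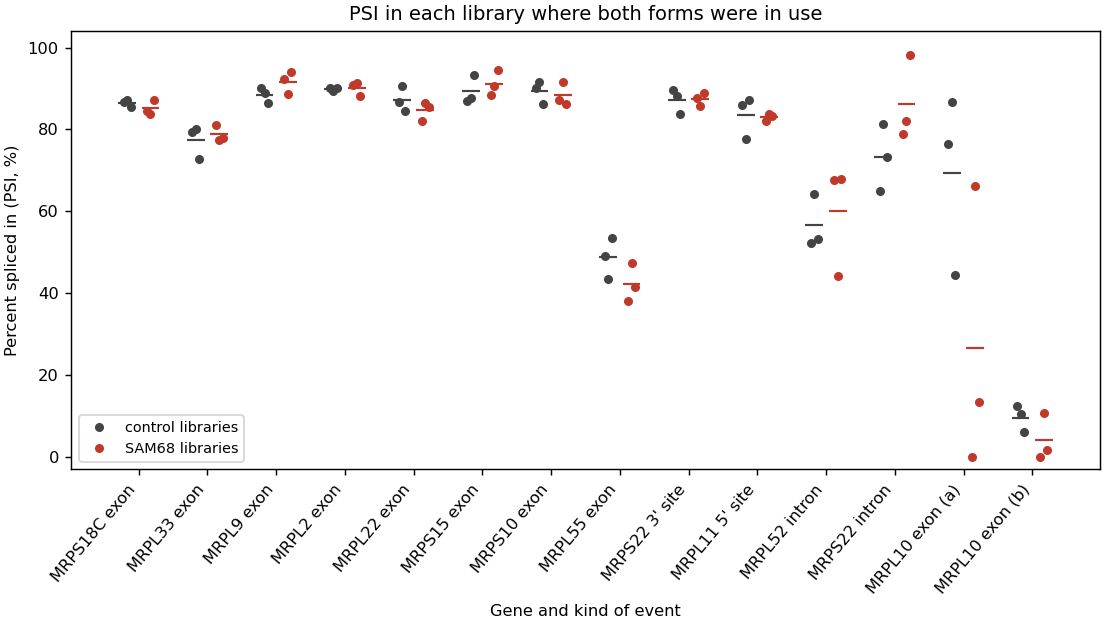
PSI (%) of each library for events in which both forms were in use, with control libraries in grey and SAM68 libraries in red, and the group mean as a line. MRPS22 intron is the event listed with 708 bases, and MRPL10 exon (a) and (b) are the same exon counted with different upstream exons. MRPL22 exon is the event listed with the form of 136 bases, which is itself rarely used. The cassette exons of MRPS18C, MRPL33, MRPL9, MRPL2, MRPL22, MRPS15 and MRPS10 stay between 72.7% and 94.6% in all 6 libraries, and MRPL10 exon (a) spreads most within each group, from 44.5% to 86.8% in the control and from 0% to 66.3% in the SAM68 libraries.

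A tandem acceptor in MRPS22, a small subunit protein without a bacterial counterpart, was read at 704 reads per library. Its sites lie 3 bases apart, so that the choice adds or removes 1 codon at the start of exon 2 (chr3:139346878-139347044, + strand). The sequence around it, chr3:139346860-139346886 in hg38, is shown with the 3 optional bases in capitals, and the longer form uses the AG before them.
MRPS22 tandem acceptor: tactaaagtccattttagCAGaatctg
The longer form was at 89.6%, 88.2% and 83.9% in the control libraries and at 87.8%, 85.8% and 88.9% in the SAM68 libraries. The change was 0.27 points (95% interval -2.41 to 3.52, adjusted p = 0.899), and 16 annotated transcripts held exactly the longer exon against 2 for the shorter one. In MRPL11, a homolog of bacterial L11 at the base of the ribosomal stalk, the donor sites of exon 1 lie 78 bases apart. The longer exon was at 86.0%, 77.7% and 87.3% in the control libraries and at 82.1%, 83.8% and 83.3% in the SAM68 libraries, a change of -0.57 points (95% interval -4.89 to 3.97, adjusted p = 0.953). In MRPS33 the longer form of an acceptor choice with sites 43 bases apart was at 75.2% ± 1.78 in the control and 79.3% ± 7.12 in the SAM68 libraries (SD, n = 3).

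An intron of 112 bases in MRPL52 (chr14:22829941-22830052) was retained at 52.4%, 64.2% and 53.2% in the control libraries and at 67.6%, 44.3% and 68.0% in the SAM68 libraries. The second SAM68 library was below all control libraries and the other SAM68 libraries were above them, with a change of 3.39 points (95% interval -8.003 to 14.0, adjusted p = 0.860). In MRPS22 an event listed as a retained intron of 708 bases (chr3:139350323-139351030) had its inclusion form at 65.1%, 81.3% and 73.3% in the control libraries, against 78.9%, 82.0% and 98.1% in the SAM68 libraries. The first 654 bases were also listed as an intron of their own, at 295 reads per library, which was retained at 0.233% in the control and 0.241% in the SAM68 libraries. The value of the longer event therefore does not measure retention of the whole intron. Its groups overlapped, and the change of 13.1 points (95% interval 1.43 to 22.4, unadjusted p = 0.0352, adjusted p = 0.536) was the only one of 10 points or more at over 50 reads per library. Without division by effective length it was 8.08 points, while the MRPL55 A5SS event came to 10.1 points. It rested on 18, 12 and 20 reads of the spliced form in the control libraries, against 13, 11 and 1 in the SAM68 libraries, and ranged from 7.20 to 17.1 points when single libraries were left out.

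The largest change of all was in MRPL10, a homolog of bacterial L10 that anchors the ribosomal stalk. The exon lies outside the canonical transcript and is the only one of these genes that any setting called. With the nearer upstream exon, PSI was 76.4%, 86.8% and 44.5% in the control libraries, against 0%, 66.3% and 13.5% in the SAM68 libraries, at 23.3 reads per library. The inclusion reads were 34, 23 and 14 in the control libraries, against 0, 24 and 3 in the SAM68 libraries, so that the second SAM68 library stood among the controls. The change in mean PSI was -42.7 points (unadjusted p = 0.0478, adjusted p = 0.566). The 95% interval, which is centred on the smaller change in the summed reads of each group, was -56.7 to -2.83 points. The likelihood ratio test on pooled counts gave an adjusted p of 0.0276. With the farther upstream exon and 157 reads per library, PSI was 12.3%, 10.4% and 6.02% in the control libraries, against 0%, 10.7% and 1.80% in the SAM68 libraries. That change was -5.42 points (95% interval -9.34 to -0.48, unadjusted p = 0.0444, adjusted p = 0.566). It was -3.33 points without SAM68 library 1, -8.69 points without SAM68 library 2, and -8.74 points without division by effective length. In both events the second SAM68 library lay within the range of the control libraries, and the other SAM68 libraries were below it. Both events count the same inclusion junction on 1 side of the exon and are not independent.

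The smallest unadjusted p belonged to an exon of MRPL52 (74 bases, chr14:22830964-22831037, + strand), which is noncoding in the annotated protein-coding transcripts that hold it. It was included at 0.90%, 2.19% and 0.95% in the control libraries and at 2.43%, 3.08% and 3.53% in the SAM68 libraries. All SAM68 libraries were higher than the control libraries, and the change was 1.66 points (95% interval 0.81 to 2.36, unadjusted p = 0.000336, adjusted p = 0.194), from 19, 54 and 22 inclusion reads to 53, 65 and 58. Leaving out single libraries gave 1.40 to 2.09 points, with adjusted p between 0.0489, without the second control library, and 0.635. The adjusted p was 0.00448 with 1 dispersion shared by all SE events, 4.87e-07 in the likelihood ratio test and 0.585 with unmoderated dispersions. Counted against a farther downstream exon, the same exon was at 7.71%, 28.7% and 11.1% in the control libraries and at 22.7%, 25.6% and 26.7% in the SAM68 libraries (adjusted p = 0.566, 64.8 reads per library), with overlapping groups. That change was 9.18 points, 12.1 points without division by effective length, and 5.12 to 15.6 points when single libraries were left out, with the ends set by control libraries 1 and 2.

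Small departures from full inclusion made up much of the rest of the 23 events at an unadjusted p under 0.05, of which 8 were higher and 15 lower in the SAM68 libraries. In 7 of them every control library was at 100%. The largest of these was an exon of MRPS25, a small subunit protein without a bacterial counterpart, at 89.3%, 100% and 95.7% in the SAM68 libraries, a change of -5.02 points (adjusted p = 0.381). Outside the 23 events, MRPL9, MRPL45 and MRPS5 had events whose SAM68 libraries were all higher. For MRPL9 these libraries were at 100% and the control libraries between 99.3% and 99.7% (0.57 points, unadjusted p = 0.0543, adjusted p = 0.566). This event lists a noncanonical form of exon 2, of 197 bases. The canonical form of 157 bases, with the same neighbours, is among the 23 events. It was at 99.7% in the control and 100% in the SAM68 libraries (965 reads per library, unadjusted p = 0.0466). For MRPL45 the change was 1.18 points (unadjusted p = 0.086) and for MRPS5 0.38 points (unadjusted p = 0.297), both with an adjusted p of 0.566. An intron of MRPL2 had 1 retained read in each control library and 0 in each SAM68 library, at 468 reads per library (unadjusted p = 0.0951, adjusted p = 0.614). In MRPS28 a shorter form of its exon 2, of 122 bases, differed by -2.07 points without overlap (382 reads per library, unadjusted p = 0.216, adjusted p = 0.566). Counted with other neighbours the same exon went from 82.1% to 83.8% (1.77 points, adjusted p = 0.586) with overlapping groups at 419 reads per library.

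Among MXE events the values near 50% need care. Of the 46 MXE events, 43 had both exons together in at least 1 annotated transcript and 35 had both in the canonical transcript. For only 5 did annotated transcripts hold each exon without the other. Of the 23 MXE events with a control PSI between 10% and 90%, 22 had both exons in the canonical transcript. When both exons sit in the same mRNA, the junction before the first exon and the junction after the second are read from the same molecules, and PSI then compares reads at different junctions rather than a choice between exons. PSI of an MXE event is given for the exon nearer the 5′ end of the gene.

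MRPL4, a homolog of bacterial L4 whose protein lines the exit tunnel, had the smallest adjusted p among all 335 events. The exons are 5 and 6 of 9, at chr19:10256708-10256825 and chr19:10258222-10258328 (+ strand), and are printed as the pair behind this value, with capitals for exons.
MRPL4 exon 5: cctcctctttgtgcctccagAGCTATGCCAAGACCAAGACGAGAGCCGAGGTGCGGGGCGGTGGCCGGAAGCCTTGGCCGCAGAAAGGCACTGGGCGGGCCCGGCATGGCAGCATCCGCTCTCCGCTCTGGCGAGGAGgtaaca
MRPL4 exon 6: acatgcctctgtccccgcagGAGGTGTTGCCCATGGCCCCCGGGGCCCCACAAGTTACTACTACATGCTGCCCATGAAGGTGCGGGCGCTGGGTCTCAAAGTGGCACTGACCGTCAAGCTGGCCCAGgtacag
The share of exon 5 was 59.0%, 51.9% and 53.9% in the control libraries, against 46.6%, 47.2% and 43.3% in the SAM68 libraries. The groups did not overlap, and the change was -9.23 points (95% interval -13.4 to -4.51, unadjusted p = 0.000571, adjusted p = 0.0773), at 724 reads per library. It lay between -10.8 and -7.19 points when single libraries were left out, with adjusted p between 0.0861 and 0.531. The adjusted p was 0.0183 with 1 dispersion shared by all MXE events, 4.13e-07 in the likelihood ratio test and 0.863 with unmoderated dispersions. Both exons are in 7 annotated transcripts together, and 1 transcript holds exon 6 without exon 5. As single cassette exons, exon 5 (971 reads per library) was at 100% in the control and 99.9% in the SAM68 libraries, and exon 6 (952 reads) likewise at 100% and 99.9%. The overlapping pair of exons 4 and 5 changed by -3.43 points (45.7%, 39.3% and 49.3% against 41.4%, 41.2% and 41.4%, adjusted p = 0.727), and by -1.17 points without control library 3 and -6.16 points without control library 2.

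MRPS15, a homolog of bacterial S15, had 5 MXE events, and in 2 of them the SAM68 libraries lay below the control libraries. Exons 3 and 4 gave 63.9%, 63.8% and 63.1% in the control libraries, against 60.6%, 57.0% and 55.4% in the SAM68 libraries (-5.92 points, adjusted p = 0.412). Exons 3 and 5 gave 54.0%, 57.0% and 53.5% against 49.2%, 49.7% and 50.8% (-4.94 points, adjusted p = 0.437). The groups did not overlap in either, but the pairs share exon 3 and its reads, so they count as 1 observation. Exons 3 and 4 with another flanking exon were at 96.5% in the control and 96.8% in the SAM68 libraries (416 reads per library), exons 5 and 6 changed by 0.58 points (adjusted p = 0.950) and exons 4 and 5 by -4.44 points (adjusted p = 0.663), these with overlapping groups. Exons 5 and 6 of MRPL48, a large subunit protein without a bacterial counterpart, gave 56.8%, 50.4% and 51.1% against 62.5%, 57.5% and 63.6% (8.43 points, adjusted p = 0.542), again without overlap. In MRPL37 the change was 3.03 points (adjusted p = 0.668), with the highest control library at 48.6% and the lowest SAM68 library at 48.8%, and 1.73 points without SAM68 library 2. The pairs of MRPL20, MRPL15, MRPS23 and MRPS18B had overlapping groups and changes between -2.35 and 2.41 points.

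**Figure D3:**
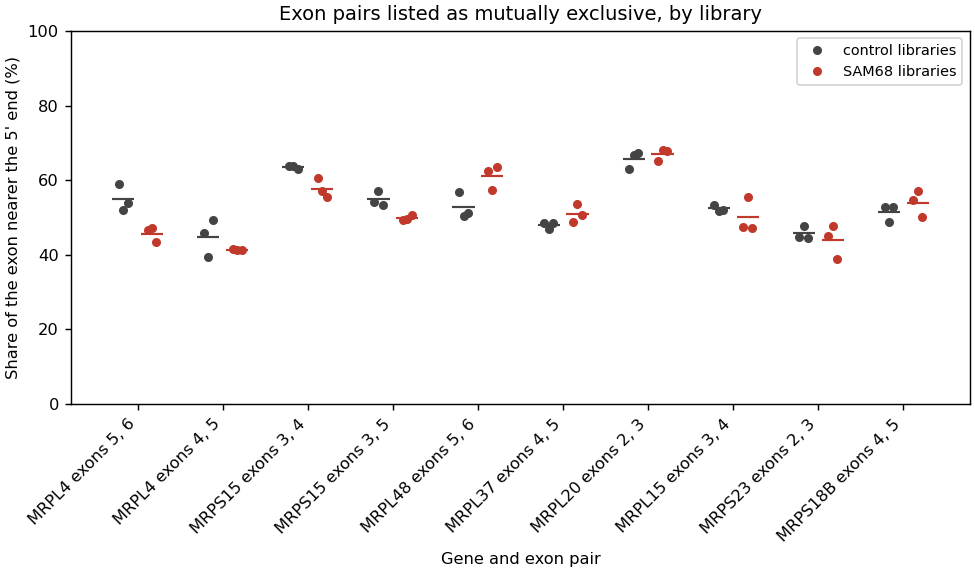
Share (%) of the exon nearer the 5′ end in exon pairs listed as mutually exclusive, for each control library (grey) and SAM68 library (red), with the group mean as a line. Exon numbers are those of the canonical transcript, which holds both exons of every pair shown. The SAM68 libraries lie below the control libraries for MRPL4 exons 5 and 6 and for both MRPS15 pairs, and above them for MRPL48 and MRPL37.

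Sequence features were not used to select the exons described here, and their relation to PSI or its change was not tested. Of the 171 exons, 55 (32.2%) had a length that is a multiple of 3, against 40.5% of all 38792 exons, and among the 11 in partial use it was 3 (27.3%), against 46.1%. The letters TAAA, the DNA form of the UAAA core bound by SAM68, occurred on the transcript strand in the exon or the 100 bases on either side for 117 exons (68.4%), against 66.2% of all exons. The letters TTTAA, which can overlap with TAAA, occurred for 82 (48.0%), against 45.2%. Median exon length was 107 bases against 117 bases, and median GC content 47.4% against 49.0%. These are descriptions of letters and not of binding.

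Junction reads also served as a measure of transcript level. Each gene was represented by its most deeply read event, since gene counts were not used here, and log2(rpm + 0.5) was tested with limma over 10147 genes. The fold change therefore reflects both the level of the transcript and the use of that part of it. It is relative to the scaled reads of all genes in the library, so absolute amounts of RNA per cell were not measured. At an adjusted p under 0.05, limma called none of the mitochondrial ribosomal protein genes. This was 0 of 60 genes higher, against a background of 0.118% (12 genes), and 0 of 60 lower, against 0.296% (30 genes). At an unadjusted p under 0.05 there were 12 genes (20%), 4 higher and 8 lower, where the background was 12.1% (1223 genes, of which 378 were higher). The groups did not overlap in 17 genes (28.3%), where the background was 16.8%. With limma voom the count was also 0 of 60, against 50 of all 10147 genes. It had 11 of the 60 genes at an unadjusted p under 0.05, for which no count over all genes is given here. Summed over the 60 genes, the control libraries held 7022, 7339 and 7399 rpm and the SAM68 libraries 7276, 7313 and 7235 rpm, so that the groups overlapped.

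Fold changes were small in both directions. The log2 fold change ranged from -0.55 to 0.30, with a median of 0.04 against -0.04 over all genes, and 37 of 60 were above 0, against 4350 of 10147 over all genes. The 95% interval lay within 1 log2 unit of 0 for all 60 genes (88.6% of all genes) and within 0.5 for 57 (95%, against 55.5%). By list, the median was 0.04 over 11 small subunit genes named for a bacterial counterpart, 0.04 over 10 other small subunit genes, -0.001 over 23 large subunit genes named for a bacterial counterpart and 0.08 over 15 other large subunit genes. MRPS18B and MRPS18A, paralogs of MRPS18C, are on the lists of other small and other large subunit genes. The widest range, -0.55 to 0.26, was among large subunit genes named for a bacterial counterpart, which held 7 of the 12 genes at an unadjusted p under 0.05.

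**Figure D4:**
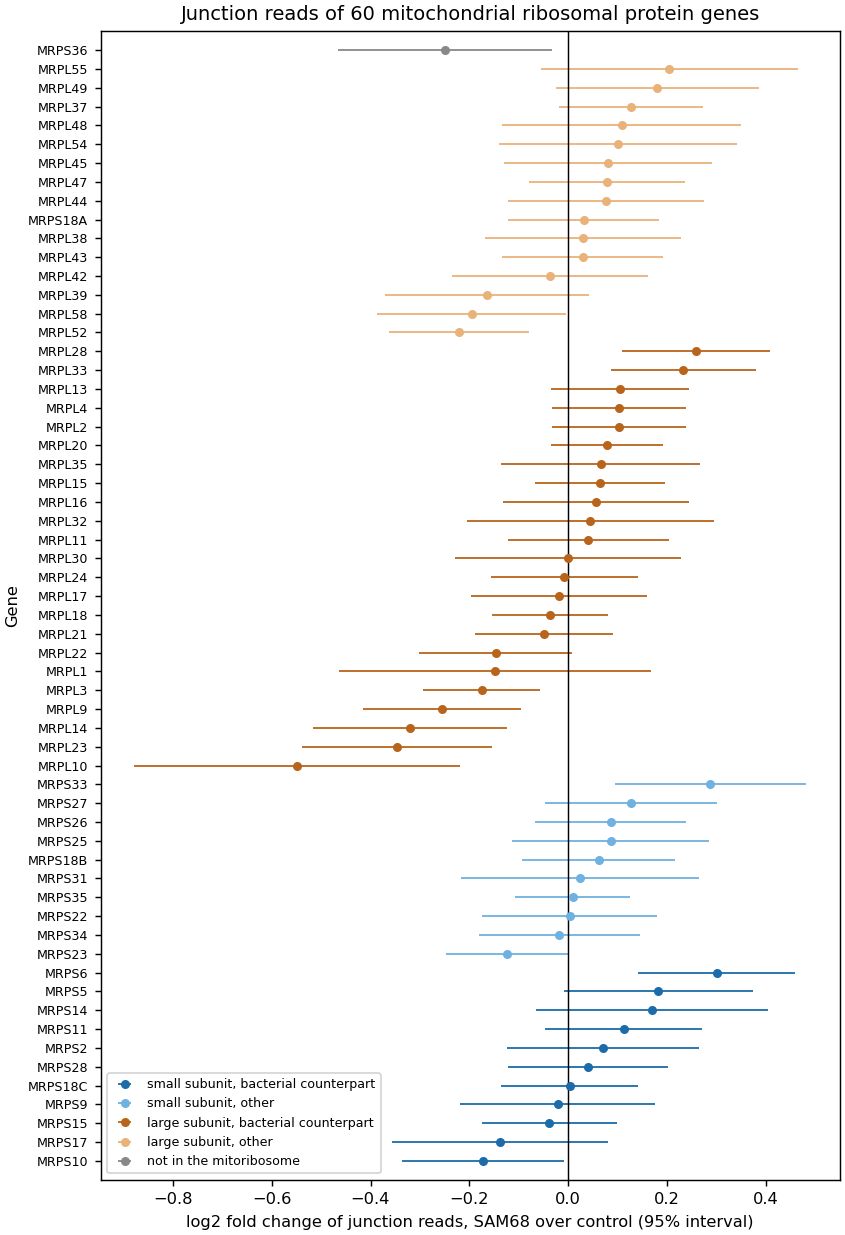
Log2 fold change of junction reads (SAM68 over control) with its 95% interval for the 60 genes, coloured by subunit and by whether the gene is on the list named for a bacterial counterpart. The points lie between -0.55 (MRPL10) and 0.30 (MRPS6), and no gene passed an adjusted p of 0.05.

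The 5 genes with the most reads were MRPL20, MRPL18, MRPS23, MRPL3 and MRPL52, and the other genes named here were taken from either end of the ranking after their values were seen. MRPL20, an assembly protein of the large subunit in bacteria, was at 312, 335 and 340 rpm in the control libraries and at 333, 357 and 352 rpm in the SAM68 libraries (log2 fold change 0.08, adjusted p = 0.620). MRPL18 was at 292 ± 16.3 rpm in the control and 285 ± 6.43 rpm in the SAM68 libraries. MRPL3, a homolog of bacterial L3 near the peptidyl transferase centre, was at 281, 302 and 295 rpm in the control libraries and at 270, 256 and 252 rpm in the SAM68 libraries. These groups did not overlap, with a log2 fold change of -0.18 (standard error 0.060, adjusted p = 0.202). MRPS23 had non-overlapping groups as well, at 291 ± 8.69 rpm and 268 ± 20.8 rpm (log2 fold change -0.12, adjusted p = 0.443). When single libraries were left out, the log2 fold change ran from -0.157 to -0.058 for MRPS23 and from 0.041 to 0.109 for MRPL20.

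At the upper end, MRPS6, whose bacterial homolog pairs with S18, had the smallest adjusted p of the 60 genes. It was at 107, 124 and 134 rpm in the control libraries and at 151, 147 and 150 rpm in the SAM68 libraries. No library of one group reached into the other, and the log2 fold change of 0.30 (standard error 0.081, adjusted p = 0.0896) was the largest rise. MRPL28 was at 103, 106 and 109 rpm against 125, 125 and 130 rpm (0.26, adjusted p = 0.129). MRPS33 was at 54.4, 62.0 and 55.4 rpm against 67.9, 68.9 and 72.9 rpm (0.29, adjusted p = 0.207). MRPL33 was at 120, 130 and 138 rpm against 154, 154 and 147 rpm (0.23, adjusted p = 0.173), and this value was read on the cassette exon described above. In each of these genes every SAM68 library was higher than every control library, but none passed the adjusted threshold.

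At the lower end, MRPL23, whose bacterial homolog sits at the mouth of the exit tunnel, was at 75.4, 82.2 and 71.3 rpm in the control libraries and at 60.7, 55.8 and 63.2 rpm in the SAM68 libraries. Every SAM68 library was lower than every control library, and the gene had a log2 fold change of -0.35 (standard error 0.098, adjusted p = 0.111). With the reads of all events of the gene added up, it was -0.66 with an adjusted p of 0.0361. MRPL10 was at 36.8, 28.4 and 30.0 rpm in the control libraries and at 19.1, 28.7 and 17.8 rpm in the SAM68 libraries (-0.55, standard error 0.168, adjusted p = 0.147). Its value was read on the alternative exon described above. MRPL14 was at 125, 139 and 156 rpm against 118, 128 and 91.1 rpm (-0.32, adjusted p = 0.166).

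MRPL9 was at 179, 185 and 170 rpm in the control libraries and at 156, 165 and 127 rpm in the SAM68 libraries (-0.26, adjusted p = 0.173). MRPL52 was at 287, 291 and 297 rpm against 256, 282 and 217 rpm (-0.22, adjusted p = 0.181). In MRPL9, MRPL10, MRPL14 and MRPL52 the second SAM68 library was the highest of its group. Without it these 4 genes passed, with log2 fold changes of -0.33, -0.76, -0.42 and -0.31 and adjusted p of 0.0489, 0.0191, 0.0344 and 0.0275, while the count over all genes went from 42 to 101. Without SAM68 library 3 the log2 fold changes were -0.15, -0.42, -0.18 and -0.12, with adjusted p between 0.283 and 0.449. MRPS36, which despite its name is known as a subunit of the oxoglutarate dehydrogenase complex, was at 58.3, 52.9 and 55.6 rpm against 51.7, 47.0 and 41.9 rpm (-0.25, adjusted p = 0.362).

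**Figure D5:**
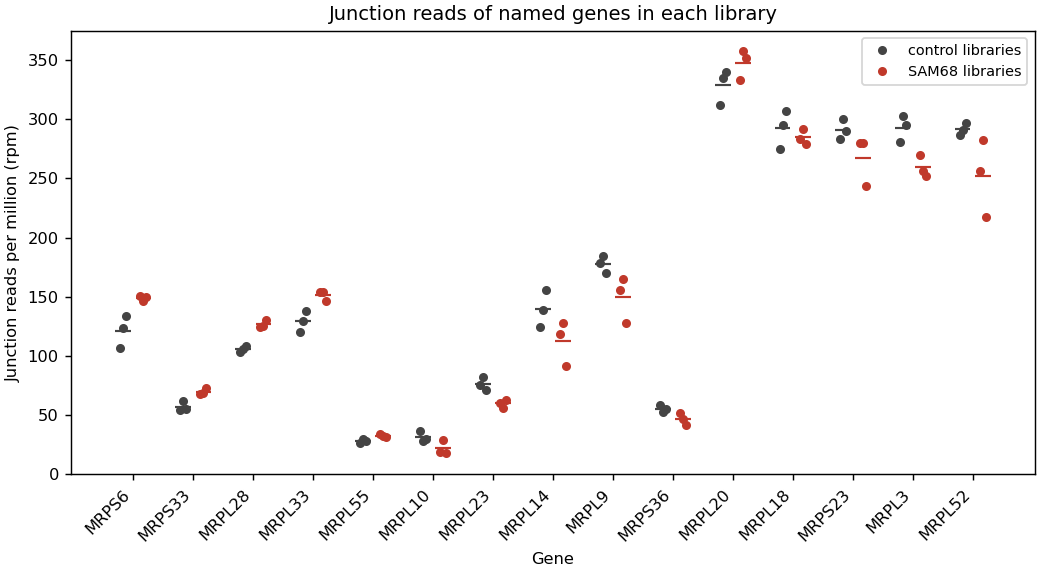
Scaled junction reads (rpm) of each control library (grey) and SAM68 library (red) for 15 genes, with the group mean as a line. MRPS6, MRPS33, MRPL28, MRPL33 and MRPL55 have all SAM68 libraries above the control libraries, and in MRPL10, MRPL14, MRPL9 and MRPL52 the second SAM68 library lies above the other SAM68 libraries.

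Among the other genes of mitochondrial translation, no event and no gene was called in 3 mitoribosome proteins without an MRP name (53 events), 13 translation factors (112 events), 17 assembly factors (98 events) and 15 mitochondrial aminoacyl-tRNA synthetases (125 events). At an unadjusted p under 0.05 these held 6, 10, 10 and 10 events and 0, 2, 2 and 1 genes, where the background was 8.44% of events and 12.1% of genes. TARS2, the mitochondrial threonyl-tRNA synthetase, included an exon at 92.6%, 100% and 91.6% in the control libraries, against 85.7%, 76.6% and 80% in the SAM68 libraries. These did not overlap, and the change was -14.0 points (95% interval -20.2 to -6.62, unadjusted p = 0.000781, adjusted p = 0.247) at 167 reads per library. The median log2 fold changes of the 4 lists were -0.02, 0.06, 0.04 and -0.01. ERAL1, a GTPase that assists assembly of the small subunit, was at 52.8, 47.8 and 49.6 rpm in the control libraries and at 67.6, 61.7 and 62.4 rpm in the SAM68 libraries (log2 fold change 0.35, adjusted p = 0.125), and was named, like TARS2, after its value was seen.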

How the data were processed

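The authors sequenced total RNA of NCI-H1975 cells, with 3 libraries in each group. Per the labels and the methods of the study, reads were processed with CASAVA 1.4 and fastp 0.20.0, trimmed at their start, aligned to GRCh38 with HISAT2 2.1.0, and passed to rMATS, whose version is not given in the sources used here. As deposited, the tables give raw junction read counts by the authors for both forms of each event as lists of 3 libraries, without normalization, beside effective lengths, inclusion levels, and the authors' own p-values, FDR and level differences, which were not used. Inclusion levels served only to recover 163 regrouped lists of the A3SS table. Another 112 allowed several readings and were left out.

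PSI was computed from the counts and effective lengths. Testing covered events whose mean was 10 reads or more, in a quasi-binomial model whose Pearson dispersion was moderated within each type by squeezeVar of limma 3.58.1 (R 4.3.3) and not taken below 1, with an F test and Benjamini-Hochberg adjustment within type. Intervals at 95% were computed from the summed reads of each group, with 0.5 reads added to each form. The change itself is the difference of the mean PSI of the libraries. For genes, the deepest event was scaled to rpm and log2(rpm + 0.5) tested with limma (trend), in place of the count model first planned, which was not run. Where nothing says that list positions correspond, no pairing was used. P-values test the difference between the groups against the spread between the 3 replicates of a group. Through the moderation, the spread used for an event comes mostly from the other events of its type.

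On simulated data the event test called 199 of 200 events moved by 0.3 in PSI and 8 unchanged ones among 66396, and the gene test 200 of 200 doubled genes and 16 unchanged ones among 10147. The changed events and genes had 50 or more reads, and the same fixed dispersion served all events and another all genes. Smaller changes, such as most of those measured here, were not simulated, so the counts do not show how often these would be called.

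Named events were up to 12 with the largest changes at 50 or more reads and no overlap between groups, 1 per gene, and up to 10, 1 per gene, with the most reads at a control PSI of 10% to 90%. The 5 genes with the most reads were also named. The remaining names (MRPS22, MRPL9 exon 5, MRPL11, MRPL2 exon 6, MRPL22, MRPS10, MRPS15 exon 5, MRPL55 exon 2, the MRPL52 intron, MRPS33, MRPS25 and MRPL10) were chosen after their values were seen. The members and gene lists were chosen with earlier results of these data known. Exon positions, frames and sequence came from GENCODE 44 and hg38. Sequences are printed for 6 exons and 1 acceptor, and others are not reported here.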

Additional observations from a re-analysis of the deposited data

How the results depend on the processing

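Across the settings tried, the count of called mitochondrial ribosomal protein events stayed at 0 except when counts were pooled for a likelihood ratio test, which called 1 (MRPL10, -42.7 points, adjusted p = 0.0276). It was also 0 with a shared dispersion per type, chosen after seeing the data, where the MRPL4 pair of exons 5 and 6 and the MRPL52 exon of 74 bases passed the adjusted threshold but not the limit of 10 points. The count of called genes was 0 except with the reads of all events of a gene added up, which gave 1 (MRPL23), and ranged from 0 to 4 when single libraries were left out, with 4 only without the second SAM68 library (MRPL9, MRPL10, MRPL14 and MRPL52). The cause was not tested. Over all events the count of calls was 18, and ran from 2 with unmoderated dispersions to 1354 with the likelihood ratio test, with 3 for limma on the logit of PSI, 7 for the larger of both dispersions, 127 for a shared dispersion, 24 for a minimum of 20 reads, 30 without a minimum, 65 without a limit on size, and 7 to 28 when single libraries were left out. Over all genes it was 42, and 25 with median-of-ratios size factors, 18 with summed events, 5 with a log2 limit of 1, 58 with a pseudocount of 5 and 4 to 101 when single libraries were left out.

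Leaving out single libraries turned the sign of 7 small changes that were never called. Their ranges were -3.72 to 0.65 points for the MRPS23 pair, -0.93 to 2.78 for MRPL33 exon 3, -1.42 to 1.46 for the MRPS22 acceptor, -3.55 to 1.25 for the MRPL11 donor, -0.39 to 1.19 for MRPL2 exon 6, -2.70 to 0.0917 for MRPS10 and -0.61 to 11.2 for the MRPL52 intron. Other changes that were not called kept their sign but moved by over 1.5 times. Their ranges were -5.06 to -0.94 points for the MRPL15 pair, 0.83 to 4.35 for the MRPS18B pair, 0.013 to 2.30 for the MRPL20 pair, 1.73 to 4.11 for the MRPL37 pair, 1.92 to 4.67 for MRPL9 exon 5 (1.93 without division by effective length), -4.05 to -1.01 for the longer MRPL22 form (-1.54 without that division), -9.09 to -4.05 for MRPL55 exon 2, 0.086 to 3.75 for MRPS15 exon 5, 0.58 to 1.82 for MRPS28 exon 2, -2.80 to -1.05 for its shorter form and 1.95 to 8.22 for the MRPS33 acceptor. For the MRPL45 exon the range was 0.70 to 1.58 points. The log2 fold change of KHDRBS1 lay between 1.96 and 2.00 when single libraries were left out. No paired analysis was possible because the lists carry no replicate numbers. The planned count models, with their own scaling and interaction test, were not run. The MRPL10 exon rested on 23.3 reads per library in 1 event, which limits its precision.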
